A study of Mus musculus with 9 samples.

Results

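Chaperones bind unfolded proteins and, in most families, spend ATP to let them fold, refold or be handed on. HSP70 proteins bind short exposed stretches of a client, DnaJ proteins (J-domain proteins, or HSP40s) deliver clients to HSP70 and stimulate its ATPase, and HSP110 proteins exchange the nucleotide so that the client is let go. HSP90 acts later on kinases and steroid receptors, and small heat shock proteins hold unfolded clients without ATP. The chaperonins enclose clients in a chamber, as HSP60 with its HSP10 lid does in mitochondria and the TRiC ring, built from the products of Tcp1 and the Cct genes, does in the cytosol. In neurons, where proteins must last and axons are long, several DnaJ proteins are tied to synapses and to inherited neurodegeneration.

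The genes described are those whose symbols name an HSP70, HSP110, HSP90, small heat shock protein, HSP60, HSP10, DnaJ or TRiC subunit, with symbols of pseudogenes left out, and they were chosen by symbol alone. They number 83 of the 54325 gene symbols in the count table. All libraries came from N2A cells, a mouse neuroblastoma line, given 200 nM okadaic acid for 2 h, so that no group lacks the drug. It inhibits protein phosphatases and lets phosphorylated UPF1 (p-UPF1) build up. UPF1 is the helicase at the centre of nonsense-mediated mRNA decay (NMD), and it is phosphorylated once it is engaged on an mRNA whose translation ended too early or ahead of a long 3′UTR. The 3 groups were input RNA that saw no antibody, RNA recovered with non-specific rabbit IgG (rIgG IP), and RNA recovered with antibody to p-UPF1 (p-UPF1 IP), with n = 3 libraries in each. RNA was cut by RNase I before its short pieces were sequenced, so a count is a fragment that Salmon assigned to a transcript. Counts were summed over the transcripts of a gene. Nothing in the labels says that replicates were separate cultures, and p-values therefore measure the spread between these libraries, which may be technical.

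Total counts were 25184464 to 29857955 in the input, 5312526 to 6246110 in the p-UPF1 IP and 79010 to 474491 in the rIgG IP libraries. The level that 3 counts of a library's total amount to was 0.100 to 0.119 CPM (counts as a share of the library total) in the input, 0.480 to 0.565 CPM in the p-UPF1 IP and 6.32 to 38.0 CPM in libraries of the rIgG IP. This covers counting error only, because PCR copies are not independent molecules. Of the 83 chaperone genes, 70 to 71 had a count in each input library, 66 to 70 in each p-UPF1 IP library and 31 to 50 in each rIgG IP library. The Neuro-2A marker genes Hand2 and Gata2, which encode transcription factors of the sympathetic lineage, were counted in each input and p-UPF1 IP library, whereas Nefl was at 0 in all 9 libraries. Summed markers of fibroblasts, glia, blood and endothelium were at 4.29 to 4.88 CPM in the input, 11.4 to 15.2 CPM in the p-UPF1 IP and 0 to 21.1 CPM in libraries of the rIgG IP, with Col1a2 and Aqp4 at 0 in all 9 libraries. Of these markers, Mbp had 37, 21 and 25 input counts against 59, 68 and 44 after p-UPF1 IP, and was called higher (edgeR, adjusted p under 0.05). Dcn had 21, 18 and 24 input counts against 1, 0 and 0, and was called lower. Pdgfra and Pecam1 were counted in each library of both groups and did not pass. The part of these markers in the results was not tested.

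The sequences around the stop codon are shown first for 6 of the genes on which the results turn, because p-UPF1 is loaded where translation ends. For each gene they come from the coding transcript with the longest reading frame in GENCODE M21 (GRCm38), and they run 5′ to 3′ on the transcript's strand, with the stop codon in capitals. The first 3 genes were higher in the p-UPF1 IP than in the input and the last 3 lower. The transcripts span chr1:75236406-75245688 on the plus strand for Dnajb2, chr4:151933691-151982137 (plus) for Dnajc11, chr2:181520485-181555133 (plus) for Dnajc5, chr1:55088132-55091307 (plus) for Hspe1, chr17:12916382-12925067 (plus) for Tcp1 and chr16:87483326-87495873 (minus) for Cct8.
Dnajb2: tgccacattctcTGAgaaccaggcaga
Dnajc11: gacacagacgggTAAaccgcttgggaa
Dnajc5: gacgggttcaacTAAattcaggagagg
Hspe1: aagtatgtcgacTGAaatcactgttga
Tcp1: gcccttgatgacTGAttggatttccct
Cct8: gaccagaatgacTGAggaacttgtcat
The annotated 3′UTR after these stop codons was 1875 nt long in Dnajb2, 1409 nt in Dnajc11 and 5757 nt in Dnajc5, against 187 nt in Hspe1, 591 nt in Tcp1 and 662 nt in Cct8. These 6 genes do not stand for the others. Its length ran from 92 to 5757 nt over the 13 higher genes and from 68 to 8088 nt over the 36 lower ones. The lower genes shown all end in TGA, and the higher ones in TGA or TAA. Over the genes with an annotated 3′UTR, TGA ended 8 of the 13 genes that were higher after p-UPF1 IP and 13 of the 36 that were lower, TAA 3 and 15, and TAG 2 and 8.

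To learn which chaperone mRNAs were recovered with p-UPF1 beyond their abundance in the cell, the p-UPF1 IP was compared with the input. In such bulk libraries, recovery with p-UPF1 from fewer cells and less recovery per cell cannot be told apart. Most chaperone genes with a call were lower in the p-UPF1 IP, above all the chaperonins. The genes that were higher were nearly all DnaJ genes, of which 40 were tested and 30.0% were higher, near the share of all genes. Of the 69 genes with a summed count of at least 10, 13 (18.8%) were higher and 38 (55.1%) lower at an adjusted p under 0.05 (edgeR's quasi-likelihood test, Benjamini-Hochberg over all genes), and 18 did not pass. Among all 16919 genes tested, 26.3% were higher and 35.7% lower, so the chaperone genes had fewer higher and more lower calls than the background. Past a 2-fold change, that is a log2 fold change over 1 in size, 7 genes were higher and 26 lower, against 17.2% and 26.5% of all genes. The median log2 fold change was −0.73 over the 69 genes and −0.42 over all genes, or −0.72 and −0.17 over the genes whose mean count reached 20. The order of the medians depended on the filter: with no filter on low counts they were −0.79 and −1.42, so that the chaperone genes lay above all genes, and with filterByExpr −0.70 and −0.11.

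The library composition differed between these groups and moves the zero of this scale. When library totals were used in place of TMM factors, the median of all genes moved by 0.41 to −0.01, that of the chaperone genes was −0.32, and 15 chaperone genes were higher and 27 lower. The share of higher calls among all calls was 42.4% by TMM and 56.7% by library totals for all genes, and 25.5% and 35.7% for chaperone genes. As a share of the counts given to protein-coding genes, the chaperone genes took 0.740% ± 0.0438 of the input (SD, n = 3), 0.742% ± 0.0188 of the rIgG IP and 0.457% ± 0.0129 of the p-UPF1 IP. The 3 p-UPF1 IP libraries (0.447 to 0.471%) lay under all input libraries (0.699 to 0.787%) and all rIgG IP libraries (0.724 to 0.761%). Protein-coding genes themselves took 42.3 to 45.7% of all counts in the p-UPF1 IP, 31.5 to 33.6% in the input and 26.4 to 29.4% in the rIgG IP. Against library totals, the chaperone genes were at 2350 to 2475 CPM in the input. They were at 1913 to 2154 CPM in the p-UPF1 IP and 1959 to 2131 CPM in the rIgG IP, which overlapped. The order against the rIgG IP thus depends on the total used.

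**Figure D1:**
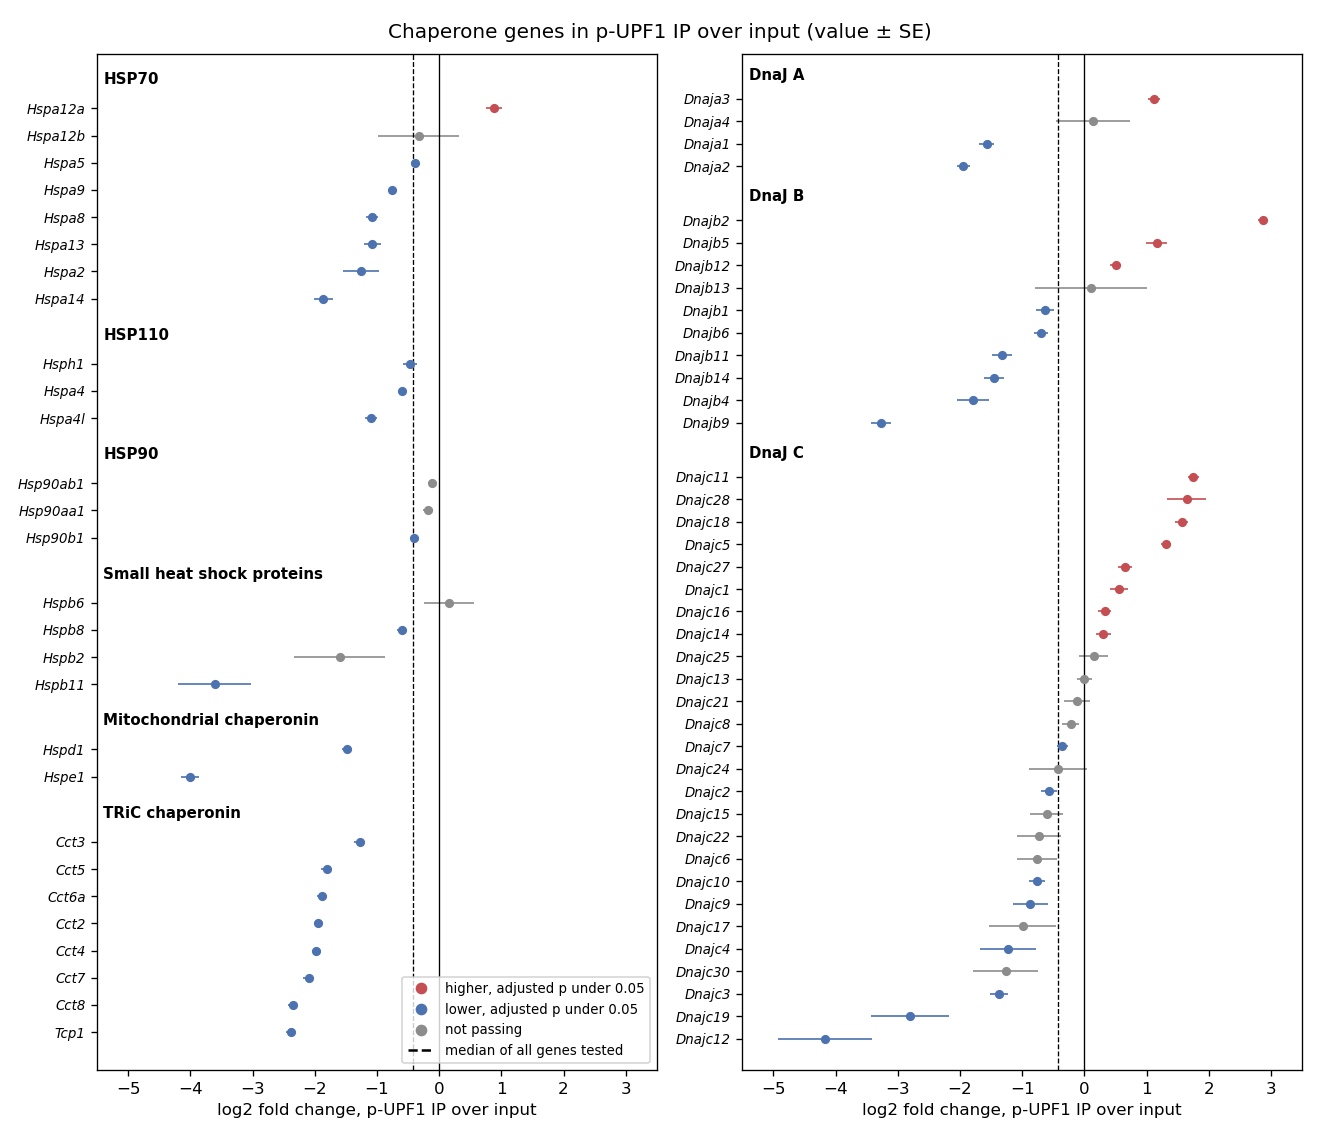
Log2 fold change (horizontal; p-UPF1 IP over input, edgeR after TMM) of 68 of the 69 tested chaperone genes by family, 1 point a gene with its SE, coloured by call. The dashed line is the median of all genes tested, −0.42. The 8 TRiC genes sit between −2.38 and −1.28, whereas the DnaJ genes run from −4.17 (Dnajc12) to 2.87 (Dnajb2).

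The TRiC chaperonin folds actin, tubulin and many other cytosolic proteins in a double ring of 8 different subunits. Its 8 subunit genes were all lower in the p-UPF1 IP than in the input, with a median log2 fold change of −1.96. Tcp1, which encodes subunit CCT1, was at 119, 113 and 126 CPM (TMM-scaled) in the input libraries and at 23.0, 24.0 and 21.7 CPM in the p-UPF1 IP libraries, a log2 fold change of −2.38 ± 0.08 (SE; edgeR, adjusted p = 4.01e-09) or 5.21-fold lower. Cct8 was at 76.4, 75.6 and 82.1 CPM in the input and 14.7, 15.6 and 15.4 CPM in the p-UPF1 IP (−2.35 ± 0.08, edgeR, adjusted p = 4.09e-09). Cct3 had the smallest difference of the 8, with 54.8, 56.8 and 56.9 CPM in the input and 21.7, 21.4 and 26.2 CPM in the p-UPF1 IP (−1.28 ± 0.09, edgeR, adjusted p = 6.32e-07). For each subunit the lowest input library was more than 2-fold above the highest p-UPF1 IP library. Of all genes, 26.5% were lower past a 2-fold change. The share of all genes whose libraries do not overlap was not counted, here or below. The other 5 subunits had log2 fold changes of −2.10 (Cct7), −1.97 (Cct4), −1.94 (Cct2), −1.89 (Cct6a) and −1.81 (Cct5), with adjusted p between 9.12e-09 and 5.57e-08. Cct6b and Cct8l1, relatives outside the ubiquitous ring, had too few counts to test.

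The subunits meet in equal number in the ring, and the unequal recovery of their mRNAs can be read inside each library, with no scaling. Counts of Cct3 were 46.1, 50.0 and 45.3% of those of Tcp1 in the input libraries against 94.1, 89.1 and 121% in the p-UPF1 IP libraries, 2.15-fold higher on average. In the rIgG IP libraries, with 4 to 29 counts of Tcp1, the ratio was 58.6, 53.3 and 50.0%. The input and p-UPF1 IP libraries did not overlap, and the exact two-sided permutation test gave p = 0.1, the smallest that 3 against 3 libraries allow. This pair, like the other pairs set against each other inside libraries, was picked with its values already seen.

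The mitochondrial chaperonin genes showed a wider gap. Hspd1 encodes the HSP60 barrel and Hspe1 its HSP10 lid, and the 2 genes stand head to head on chromosome 1 and share a promoter. Hspe1 was at 35.3, 32.6 and 37.0 CPM in the input and at 2.20, 2.74 and 1.55 CPM in the p-UPF1 IP, resting there on 13, 20 and 11 counts, a log2 fold change of −4.01 ± 0.15 (edgeR, adjusted p = 8.19e-09) or 16.1-fold lower. Hspd1 was at 78.0, 77.8 and 78.8 CPM in the input and at 26.1, 26.8 and 31.0 CPM in the p-UPF1 IP, a log2 fold change of −1.48 ± 0.08 (edgeR, adjusted p = 1.05e-07). Both genes were lower in each p-UPF1 IP library than in any input library, Hspe1 by far the more. Counts of Hspe1 were 45.3, 41.9 and 46.9% of those of Hspd1 in the input against 8.44, 10.3 and 5.0% in the p-UPF1 IP, 5.66-fold lower on average (exact permutation p = 0.1, the smallest possible). The rIgG IP libraries gave 59.1, 71.4 and 20.0%, from 5 to 22 counts of Hspd1. Of 35-nt windows, 52.9% in Hspd1 and 44.9% in Hspe1 also occur in another gene, so that fragments there could be assigned either way. The pseudogene Hspd1-ps3 was given 177, 182 and 386 counts in the input and 0 in all p-UPF1 IP libraries.

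**Figure D2:**
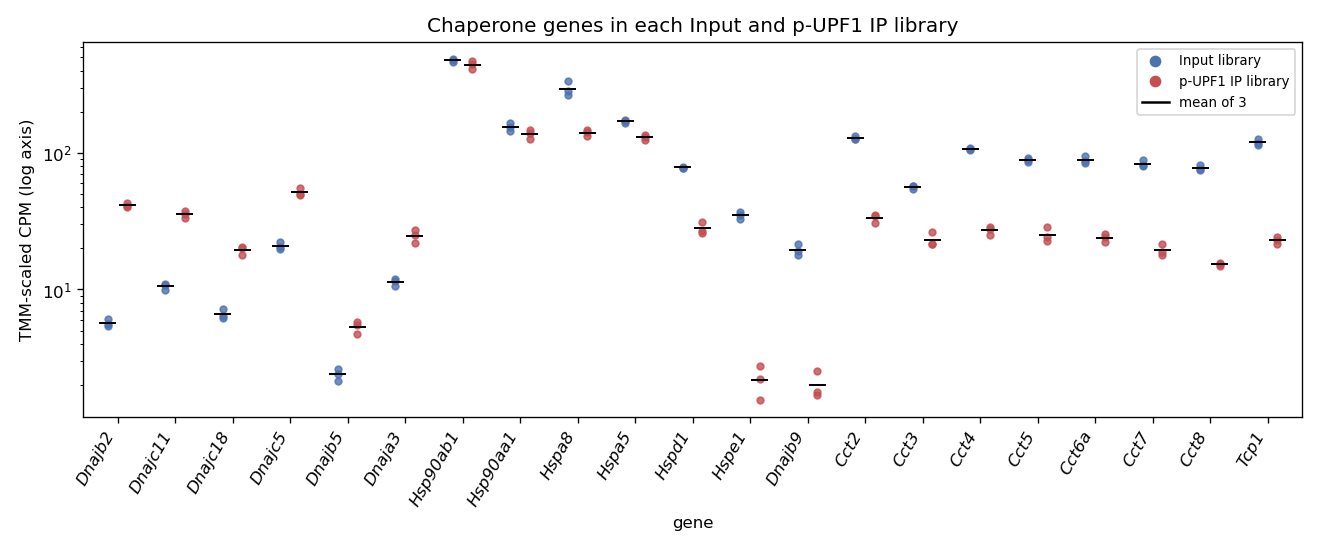
TMM-scaled CPM (vertical, log axis) of 21 chaperone genes, 1 point for each input (blue) or p-UPF1 IP (red) library, with the mean of 3 as a bar. Dnajb2 lies at 39.9 to 43.2 CPM in the p-UPF1 IP and 5.36 to 6.04 CPM in the input, the TRiC subunits, Hspd1, Hspe1 and Dnajb9 lie lower in the p-UPF1 IP, and the points of Hsp90ab1 overlap.

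Among HSP70 genes, 6 of the 8 tested were lower in the p-UPF1 IP and 1 was higher, with a median log2 fold change of −0.91. Hspa8, the constitutive cytosolic HSP70 (HSC70), was at 264, 338 and 285 CPM in the input and at 142, 133 and 146 CPM in the p-UPF1 IP, with a log2 fold change of −1.07 ± 0.10 (edgeR, adjusted p = 4.28e-06) and no overlap between groups. Hspa9, the HSP70 of the mitochondrial matrix (mortalin), was at 156, 161 and 167 CPM against 94.0, 91.0 and 102 CPM (−0.75 ± 0.07, edgeR, adjusted p = 6.39e-06). The difference was smaller for Hspa5, the HSP70 of the endoplasmic reticulum (BiP), with 166, 172 and 173 CPM against 124, 134 and 131 CPM (−0.39 ± 0.06, edgeR, adjusted p = 0.000402), and with library totals its log2 fold change was 0.02 (adjusted p = 0.88). Hspa14, which works on ribosomes with a DnaJ partner, Hspa13 and Hspa2 were lower too, by log2 fold changes of −1.86, −1.08 and −1.26. Hspa12a, a distant relative, was the HSP70 gene that was higher, at 8.26, 7.14 and 8.12 CPM in the input and 12.7, 17.3 and 13.1 CPM in the p-UPF1 IP (0.88 ± 0.13, edgeR, adjusted p = 0.000177).

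The stress-induced HSP70 genes Hspa1a and Hspa1b were all but absent, and so was Hspb1, the stress-induced small heat shock protein. Hspa1a and Hspb1 were at 0 in all 9 libraries, which allows up to 0.119 CPM in an input library, and Hspa1b had a single count, in p-UPF1 IP replicate 2. Over 60% of the 35-nt windows of each of these 3 genes also occur in another gene (64.4, 66.7 and 61.1%, in the order Hspa1a, Hspa1b, Hspb1), which bears on how fragments from them would be assigned. The genes that share windows with Hspa1a had 5 input counts together, and Hsp25-ps1, which shares those of Hspb1, had 0. For Hspa1b they had 19058, but 66.3% of its windows occur in Hspa1a.

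The HSP110 genes, whose products release clients from HSP70, were all lower in the p-UPF1 IP: Hspa4l by a log2 fold change of −1.10 ± 0.09, Hspa4 by −0.59 ± 0.07 and Hsph1 by −0.47 ± 0.12 (edgeR, adjusted p = 2.16e-06, 2.97e-05 and 0.00486). Hspa4 was at 62.4, 61.1 and 63.2 CPM in the input and 43.5, 40.5 and 39.9 CPM in the p-UPF1 IP, and Hsph1 at 38.1, 38.5 and 45.3 CPM against 28.3, 25.4 and 34.1 CPM. The groups did not overlap for either gene, but with library totals neither passed the test.

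The cytosolic HSP90 mRNAs, among which Hsp90ab1 was the most counted chaperone mRNA, did not pass the test. Hsp90ab1, the constitutive cytosolic HSP90, was at 479, 483 and 465 CPM in the input and 447, 467 and 410 CPM in the p-UPF1 IP, and its log2 fold change of −0.11 ± 0.07 did not pass (edgeR, adjusted p = 0.207). Hsp90aa1, the inducible cytosolic form, was at 146, 155 and 165 CPM against 125, 147 and 139 CPM (−0.18 ± 0.08, edgeR, adjusted p = 0.0769). Both sets of values overlapped between groups, and by library totals the log2 fold changes were 0.30 for Hsp90ab1 (edgeR, adjusted p = 0.0182) and 0.23 for Hsp90aa1 (adjusted p = 0.0561). Hsp90b1, the form of the endoplasmic reticulum (GRP94), was lower at −0.41 ± 0.07 (edgeR, adjusted p = 0.000365), with 114, 119 and 122 CPM against 89.0, 92.9 and 86.4 CPM, but at 0.00 by library totals. Per kb of transcript, Hsp90ab1 was at 189 TMM-scaled CPM in the input and 175 in the p-UPF1 IP, above Hspa8 (123 and 58.6), Hspa5 (65.2 and 49.6), Cct2 (65.6 and 17) and Hspe1 (45.2 and 2.80). On the same scale Dnajb2 was at 1.84 in the input and 13.5 in the p-UPF1 IP, where it was above Tcp1 (48.8 and 9.37).

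Of the 8 small heat shock protein genes 4 were tested and 2 were lower. Hspb8, which works with BAG3 in clearing misfolded proteins, was at 25.0, 24.1 and 23.9 CPM in the input and 15.8, 15.5 and 16.8 CPM in the p-UPF1 IP (−0.60 ± 0.08, edgeR, adjusted p = 7.08e-05). Hspb11, a subunit of the transport trains of cilia despite its name, had 34, 38 and 62 counts in the input against 0, 2 and 1 in the p-UPF1 IP (−3.61 ± 0.58, edgeR, adjusted p = 0.000342). From these counts it was 12.9-fold lower, with a 95% counting interval of 4.32 to 63.3.

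DnaJ genes, 40 of 45 of which were tested, moved in both directions: 12 (30.0%) were higher, 16 (40.0%) lower and 12 did not pass, with a median of −0.50. These shares are near the 26.3% and 35.7% of all genes. Dnajb2, whose product (HSJ1) is found in neurons and sorts ubiquitylated clients, was at 6.04, 5.36 and 5.55 CPM in the input and 43.2, 39.9 and 41.1 CPM in the p-UPF1 IP, a log2 fold change of 2.87 ± 0.08 (edgeR, adjusted p = 2.11e-09) or 7.32-fold higher. Dnajc11, which is part of the complex that shapes mitochondrial membranes, was at 9.95, 10.9 and 10.8 CPM against 33.5, 37.6 and 35.6 CPM (1.75 ± 0.08, edgeR, adjusted p = 3.97e-08). Dnajc5, the cysteine string protein of synaptic vesicles, was at 19.7, 20.3 and 22.1 CPM against 49.3, 50.2 and 54.9 CPM (1.31 ± 0.08, edgeR, adjusted p = 2.39e-07). These genes were higher in each p-UPF1 IP library than in any input library. None of their 35-nt windows occurs in another gene, and none overlaps another gene's exons. Also over 2-fold higher were Dnajc18, a membrane protein of the endoplasmic reticulum (1.56 ± 0.10), Dnajc28 (1.65 ± 0.31, from 14 to 22 counts in each library), Dnajb5 of the cytosol (1.16 ± 0.17) and Dnaja3, the matrix J-protein of mitochondria (1.13 ± 0.10). Dnajb12, Dnajc1, Dnajc14, Dnajc16 and Dnajc27 were higher by log2 fold changes between 0.31 and 0.65.

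At the other end, Dnajb9, the endoplasmic reticulum protein ERdj4 that binds BiP and is induced by the unfolded protein response, was at 17.9, 19.3 and 21.5 CPM in the input and 1.69, 1.78 and 2.54 CPM in the p-UPF1 IP. Its log2 fold change was −3.27 ± 0.16 (edgeR, adjusted p = 4.59e-08), or 9.64-fold lower, with 10, 13 and 18 counts behind the p-UPF1 IP values. Dnajc12, a partner of the aromatic amino acid hydroxylases, had 25, 22 and 25 counts in the input against 0, 0 and 1 in the p-UPF1 IP (−4.17 ± 0.75, edgeR, adjusted p = 0.000744), and the ratio of counts was 20.8-fold lower with a counting interval of 3.61 to 832. Dnajc19, part of the mitochondrial import motor, had 47, 33 and 46 counts against 4, 1 and 0 (−2.81 ± 0.62, edgeR, adjusted p = 0.00276). These 3 genes did not overlap between groups, and the low counts leave the size of the change in Dnajc12 and Dnajc19 wide. Some cytosolic helpers of HSP70 were lower as well: Dnaja1 by −1.57 ± 0.12, Dnaja2 by −1.95 ± 0.11 and Dnajb1, the first HSP40 described, by −0.63 ± 0.14 (edgeR, adjusted p = 1.08e-06, 1.02e-07 and 0.00334). Of these, Dnajb1 did not pass by library totals. Other helpers of HSP70, Dnajb2 and the cytosolic Dnajb5, were higher, as given above.

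The classes A, B and C of DnaJ proteins, defined by the domains beside the J domain, gave 1 higher and 2 lower of 4 (A), 3 and 6 of 10 (B) and 8 and 8 of 26 (C). In class C 30.8% were higher and as many lower, near the 26.3% and 35.7% of all genes, and classes A and B are small. The medians were −0.72, −0.66 and −0.39, and by library totals that of class C was 0.02. Against Hspa8, their HSP70 partner, counts of Dnajb2 were 2.29, 1.59 and 1.95% in the input, 0.952, 10.3 and 0% in the rIgG IP and 30.4, 30.1 and 28.1% in the p-UPF1 IP. Counts of Dnajc5 were 7.47, 6.02 and 7.76% of those of Hspa8 in the input against 34.7, 37.9 and 37.5% in the p-UPF1 IP. On average the ratio to Hspa8 was 15.2-fold higher in the p-UPF1 IP than in the input for Dnajb2 and 5.19-fold for Dnajc5, with no overlap between these groups (exact permutation p = 0.1 each, the smallest possible).

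**Figure D3:**
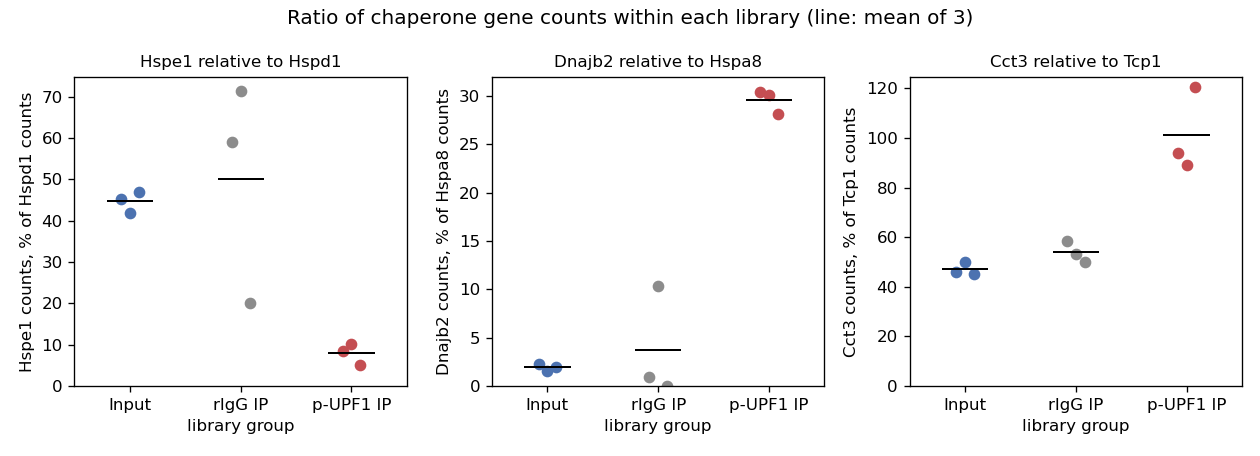
Counts of a chaperone gene as a percentage of those of a partner gene in the same library, which needs no scaling between libraries; each point is 1 library of the input, rIgG IP or p-UPF1 IP, and the line is the mean of 3. Hspe1 over Hspd1 is lower in the p-UPF1 IP (5.0 to 10.3%) than in the input (41.9 to 46.9%), Dnajb2 over Hspa8 and Cct3 over Tcp1 are higher, and the shallow rIgG IP libraries scatter in the pairs with Hspd1 and Hspa8.

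Grouped by compartment and by regulation, the same genes gave the following counts, to be read beside the 26.3% of all genes that were higher and the 35.7% that were lower. Of the 13 heat-inducible chaperone genes, the targets of HSF1, 10 were tested and 9 were lower, with a median log2 fold change of −1.09, and the other was Hsp90aa1. Of 12 genes listed for the endoplasmic reticulum, 8 were lower and 3 (Dnajb12, Dnajc1 and Dnajc16) higher, and of 9 mitochondrial genes, 4 (Hspd1, Hspe1, Hspa9 and Dnajc19) were lower and 3 (Dnaja3, Dnajc11 and Dnajc28) higher. The endoplasmic reticulum list was not complete, since it leaves out Dnajc18, which was higher (1.56 ± 0.10). The mitochondrial shares, 44.4% lower and 33.3% higher, are near those of all genes. Co-chaperones and regulators whose symbols lie outside the rule, such as prefoldins, BAG proteins and HSP90 partners, had 8 higher and 24 lower of 42, with a median of −0.36. The higher ones were Fkbp5, an immunophilin on HSP90 (2.40 ± 0.09), Unc45a, a myosin chaperone (1.46 ± 0.11), Stub1, the ubiquitin ligase CHIP (1.18 ± 0.10), Hsf1, the heat shock transcription factor itself (0.83 ± 0.14), Clpb, Sgta, Gak and Hyou1. Vbp1, a prefoldin subunit (−2.46 ± 0.18), and Ptges3, the HSP90 partner p23 (−2.20 ± 0.11), were among the lower ones.

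Promoters of the heat-inducible genes were searched for the heat shock element, since those genes were named for their induction by HSF1. The letters searched were GAANNTTC and TTCNNGAA, each of which is its own reverse complement, so that a match lies on both strands and neighbouring matches can overlap. A match is in capitals, and sequences and coordinates are those of RefSeq on GRCm38.p6. They are shown for the promoter that Hspe1 and Hspd1 share (chr1:55088053-55088082, plus strand), for Hspa1a (chr17:34972242-34972271, minus), for Hspb1 (chr5:135887791-135887820, plus) and for Dnaja1 (chr4:40722333-40722362, plus), to set genes counted in these cells beside genes at 0. In the promoter of Hspe1 and Hspd1 the capitals mark the middle of 3 overlapping matches, the other two of which are TTCTAGAA and TTCCGGAA.
Hspe1 and Hspd1: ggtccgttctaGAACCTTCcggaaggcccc
Hspa1a: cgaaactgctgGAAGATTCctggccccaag
Hspb1: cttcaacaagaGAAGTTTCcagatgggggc
Dnaja1: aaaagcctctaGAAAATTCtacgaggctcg
Of the 83 chaperone genes, 67 were matched to a promoter by symbol and 20 (29.9%) held a match, against 17% of 27025 genes and 15.1% of 32851 promoters of the same length. Among heat-inducible genes, 9 of the 11 matched held one, and among the others 11 of 56. Hspa1a, Hspb1, Hspe1 and Dnaja1 thus carry a match at input levels that run from 0 to 37.0 CPM. A match is a description of these letters, not evidence of a site in use.

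The p-UPF1 IP was then set against the rIgG IP, which carries RNA that binds beads or antibody without p-UPF1. This comparison shares its p-UPF1 IP libraries with the one above and rests on thin rIgG IP libraries, in which the chaperone genes tested had few counts (for Tcp1 29, 15 and 4, for Hspe1 13, 5 and 1, for Dnajb2 1, 3 and 0). Of 59 genes tested, 10 (16.9%) were higher and 7 (11.9%) lower in the p-UPF1 IP, against 18.5% and 5.56% of all 12033 genes (edgeR, adjusted p under 0.05). All 10 and 5 of the 7 changed over 2-fold, against 18% and 5.31% of all genes. The median log2 fold change was 0.27 over the chaperone genes and 0.91 over all genes. With the 7 chaperone genes at 0 in all rIgG IP libraries set at their bound of 3 counts over the group, the chaperone median turned to −0.24. The split depended on the scaling: by RLE factors the median of all genes moved by −0.29 and 5 chaperone genes were higher and 12 lower, and by DESeq2 it moved by −0.66 and 3 were higher and 11 lower. The share of higher calls among all genes called was 76.9% by TMM, 64.1% by RLE factors and 55.7% by DESeq2, and among chaperone genes called it was 58.8, 29.4 and 21.4%.

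DnaJ genes made up 8 of the 10 higher genes and 33 of the 59 tested. Of these 33 genes 24.2% were higher, against 18.5% of all genes. Dnajc5 was at 65.0 ± 3.45 CPM in the p-UPF1 IP against 6.88 ± 1.98 CPM in the rIgG IP (SD, n = 3; TMM-scaled within these 6 libraries), from 3, 1 and 1 counts in the latter, a log2 fold change of 3.24 ± 0.43 (edgeR, adjusted p = 3.03e-06). Dnajb2 was at 52.3 ± 2.40 CPM against 5.50 ± 7.46 CPM (3.25 ± 0.51, edgeR, adjusted p = 2.97e-05). Dnajc8, a spliceosome-associated J-protein, had 37, 42 and 46 counts in the p-UPF1 IP and 0 in all rIgG IP libraries, and was at least 1.90-fold higher when the rIgG IP is set at 3 counts over the group (edgeR, adjusted p = 0.0143). Higher as well were Dnajc11 (2.72 ± 0.47), Dnajc18 (1.84 ± 0.51), Dnajc13 of endosomes (1.77 ± 0.58), Hspa12a (1.73 ± 0.60), Dnaja3 (1.52 ± 0.46) and Hspa4 (1.16 ± 0.33). Dnajc27, which joins a Rab-like GTPase to a J domain, was higher from 0, 3 and 0 counts in the rIgG IP, a ratio of 4.95 with a counting interval of 1.68 to 24.1. Of these 10 genes, Dnajc8 and Dnajc13 did not pass over the input and Hspa4 was lower than the input.

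The 7 lower genes were Hspe1 (−3.19 ± 0.50, edgeR, adjusted p = 3.46e-05), with 2.73 ± 0.758 CPM in the p-UPF1 IP against 21.4 ± 12.1 CPM in the rIgG IP, and the TRiC subunits Cct8 (−1.74 ± 0.31), Cct7 (−1.40 ± 0.26), Cct2 (−1.39 ± 0.25), Tcp1 (−1.17 ± 0.26), Cct4 (−0.81 ± 0.29) and Cct5 (−0.77 ± 0.27). Cct6a (−0.83, adjusted p = 0.0591) and Cct3 (−0.33, adjusted p = 0.470; edgeR) did not pass, and the median over the 8 subunits was −1.0. No HSP70, HSP90 or DnaJ gene passed as lower than in the rIgG IP, but Dnajb9 (−1.86, adjusted p = 0.0686), Dnaja1 (−1.16, adjusted p = 0.058) and Dnaja2 (−1.12, adjusted p = 0.0574; edgeR) had larger log2 fold changes than Cct4 and Cct5. Hspa8 was at −0.30 and Hsp90ab1 at 0.27. Without rIgG IP replicate 1, the deepest of its group, 2 chaperone genes rather than 7 were lower, and leaving out any other library gave 7 to 9.

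**Figure D4:**
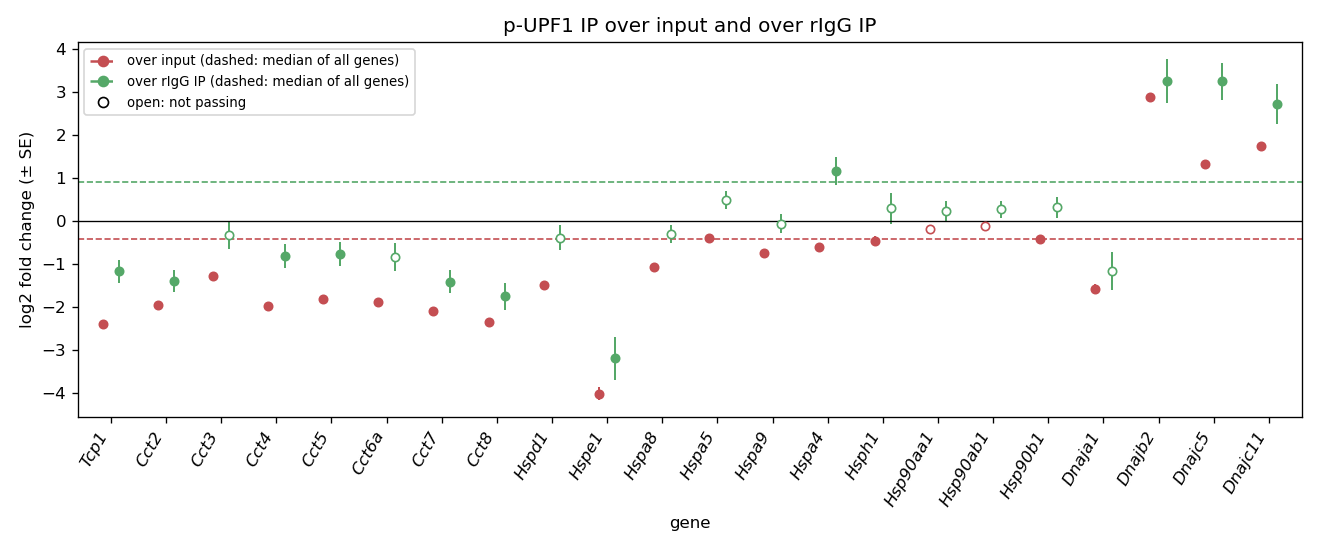
Log2 fold change ± SE (vertical) of 22 chaperone genes in p-UPF1 IP over input (red) and over rIgG IP (green), with open points for those that did not pass and dashed lines for the medians of all genes (−0.42 and 0.91). Both comparisons use the same p-UPF1 IP libraries. Dnajb2 (2.87 and 3.25) and Dnajc5 (1.31 and 3.24) are above 0 in both, and Hspa4 is below the input (−0.59) and above the rIgG IP (1.16). Among the genes below 0 in both are Hspe1 and all 8 TRiC subunits, of which Cct3 and Cct6a did not pass over the rIgG IP.

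Between the rIgG IP and the input, 0 chaperone genes were higher and 1 was lower, of 69 tested, against 0.584% and 0.313% of all genes (edgeR, adjusted p under 0.05), and DESeq2 gave 0 and 1 as well. At an unadjusted p under 0.05 there were 15, all of them lower in the rIgG IP. Of all 16280 genes tested, 2011 had such a p in either direction. The gene called was Hspa4, with 1436, 1369 and 1573 counts in the input and 7, 7 and 3 in the rIgG IP (−1.47 ± 0.29, edgeR, adjusted p = 0.0367), and it did not pass by library totals (−1.24, adjusted p = 0.121) or without rIgG IP replicate 1 (−1.12, 0.202), Input replicate 1 (−1.39, 0.136) or Input replicate 3 (−1.39, 0.0593). The median was −0.71 over the chaperone genes and −0.84 over all genes. With the 17 chaperone genes at 0 in all rIgG IP libraries set at their bound of 3 counts over the group, the median was −0.35.

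Below the level of genes, the 83 chaperone genes have 426 annotated transcripts in the table, of which 254 could be compared between the p-UPF1 IP and the input, with 25 higher and 75 lower (edgeR, adjusted p under 0.05), against 9.44% and 17.2% of all 42616 transcripts tested. Without Input replicate 1 there were 38 lower transcripts, and without Input replicate 3 there were 42. In 14 genes, Cct3, Tcp1, Hspa9, Hsp90aa1, Hsp90ab1 and Dnajc5 among them, at least 1 transcript was higher and another lower. The share of all genes with such opposite calls was not counted. Coding transcripts gave 14 higher and 46 lower of 148, retained introns 8 and 14 of 63, other processed transcripts 2 and 7 of 27, and transcripts annotated as NMD targets 1 and 8 of 16. The shares over all genes' transcripts of each type were not counted. Short fragments cannot tell apart transcripts that share exons, so that a shift of counts between transcripts may lie in the assignment.

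Among the examples, which were chosen after their values were seen, a retained-intron transcript of Hspa9 (ENSMUST00000237399.1) had 3, 5 and 1 counts in the input against 56, 73 and 70 in the p-UPF1 IP (5.85 ± 0.59). In that transcript 27.7% of 35-nt windows occur in no other transcript of the gene. The coding Cct3 transcript ENSMUST00000001452.13 had 835, 724 and 832 counts in the input and 0 in all p-UPF1 IP libraries, whereas the retained intron ENSMUST00000167718.1 went from 0 in all input libraries to 39, 78 and 39, with no window of its own. For Hsp90ab1, whose summed level did not pass, the transcript ENSMUST00000166469.7 had 714, 852 and 846 counts in the input against 1259, 1533 and 1184 in the p-UPF1 IP, although the p-UPF1 IP libraries were sequenced less deeply.

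Transcripts annotated as NMD targets exist for 22 of the chaperone genes and number 33. They took 3.72 to 5.04% of chaperone counts in the input, 3.71 to 4.71% in the p-UPF1 IP and 1.19 to 1.74% in the rIgG IP, so the input and p-UPF1 IP overlapped. The 1 such transcript that was higher belongs to Dnajc8 (ENSMUST00000138334.7), with 0 counts in the input against 7, 10 and 11 in the p-UPF1 IP. The NMD share of Dnajc8 counts was 1.21, 2.10 and 0% in the input against 18.9, 33.3 and 26.1% in the p-UPF1 IP. In Dnajc5 the share was 49.3, 51.0 and 45.3% in the input against 23.0, 26.2 and 25.4% in the p-UPF1 IP, and the NMD transcript itself (ENSMUST00000116365.8) had a log2 fold change of 0.05 (edgeR, adjusted p = 0.778). In Hsp90ab1 the share was 14.1, 14.0 and 14.9% against 8.49, 8.69 and 10.3%. The groups did not overlap in these 3 genes, and the share was higher in the p-UPF1 IP for Dnajc8 and lower for the other pair. Nor did they overlap in Dnajc15, Dnajc18, Dnajc25, Dnajc27, Cct4 and Cct8, in all of which the share was lower after p-UPF1 IP. The share of Dnajc27 fell from 65.4, 52.1 and 55.9% to 0 in all p-UPF1 IP libraries. Dnajc8 was the only gene whose share was higher without overlap.

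Features of the mRNA (that of Cct6a is left out, since the annotation gives it no coding transcript) that the choice of genes did not use were set against the log2 fold change over the input, across genes, which share libraries and are not independent replicates. The annotated 3′UTR had a median of 1940 nt in the 13 higher genes (92 to 5757 nt) and of 693 nt in 36 lower genes (68 to 8088 nt), and the ranges overlapped almost wholly. Families with short 3′UTRs were TRiC, with a median of 245 nt (128 to 662 nt), and HSP90, with 262 nt, whose median log2 fold changes were −1.96 and −0.18, whereas the medians of DnaJ classes A, B and C were 1611, 1612 and 1409 nt. Among genes with a mean count of at least 20, Spearman's rho with the fold change was 0.31 for the 3′UTR (n = 53), 0.45 for transcript length (n = 55) and 0.40 for GC content (n = 55). Over all genes of that depth the same values were 0.13 (n = 9399), 0.24 and 0.43 (n = 9598). Among the DnaJ genes rho was 0.74 for GC content (n = 31; Pearson's r = 0.78) and 0.14 for the 3′UTR (n = 30). Dnajb2 had a GC content of 57.3%, and Dnajb9 and Dnajc19 of 40.6 and 40.3%. Base composition and length also bear on the yield of fragments and on the assignment of reads, and their part in the differences was not tested.

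Several chaperone genes share sequence with other genes, which limits how far their counts can be read. The share of 35-nt windows of the reference transcript that occur in another gene was 76.4% in Hspa8, 61.8% in Hsp90aa1 and 32.4% in Dnaja1. The relatives that share most windows with them were Gm15459 (156 input counts), Gm12346 (6371) and Gm15542 (994). All genes that share windows had 530, 6575 and 1100 input counts together, in the same order. It was 0% in Cct2, Cct5, Cct8, Hspa4, Hspa5 and Hsph1. Exons of 30 chaperone genes overlap those of another gene, 27 of them on the opposite strand, among which are Tcp1 (Acat3 and Mrpl18), Cct6a (Psph), Cct7 (Pradc1), Cct8 (Usp16), Dnaja1 (Smu1) and Dnajc19 (Fxr1). Hspa8, Cct6a and Tcp1 host small nucleolar RNA genes.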

How the data were processed

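RIP-seq of N2A cells was measured in 9 libraries, 3 each of input, rIgG IP and p-UPF1 IP. The authors trimmed reads with fastp, mapped them with STAR 2.7.0f to GRCm38.p6 and quantified transcripts with Salmon 0.13.1; the submitters' processing notes also name bcl2fastq 2.19.0, DESeq2 1.22.1 and R 3.5.1. The deposited values are estimated counts per transcript, whole numbers that are not scaled for library size, for 140658 transcripts, and the rounding step is not given in the sources used here. Of these, 139921 were matched by identifier to GENCODE M21 (GRCm38), including all 426 chaperone transcripts; the study used a later release.

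Counts were summed per gene symbol and compared for each pair of groups with edgeR 4.0.16 in R 4.3.3 (TMM, quasi-likelihood test, the 6 libraries concerned, summed count of at least 10). P-values were adjusted over all genes with the Benjamini-Hochberg method, and an adjusted p under 0.05 was the threshold. Transcripts were compared for p-UPF1 IP over input alone. The standard error is the fold change divided by the root of its F statistic. Counting intervals are exact 95% intervals. The procedure was tested on simulated data. Libraries differed from their replicates by more than sampling noise (chi-square per degree of freedom 3.62 to 15.6), so none was counted as a copy. Depth limits the rIgG IP above all.

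Genes were named by rule: 24 fixed genes (the main HSP70, HSP110, HSP90, chaperonin and DnaJ genes), the 6 highest and 6 lowest past the threshold over the input, and up to 3 each way in the other comparisons; others stand as members of a counted list or were chosen after their values were seen. The genes and lists were chosen with earlier results of these data known. Alternatives were RLE factors, library totals, DESeq2 1.42.0, edgeR's filterByExpr, no filter, a fit to all 9 libraries, a block on the replicate number, a log2 fold change over 1 in size, and leaving out each library. No protein sequences were used here.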

Additional observations from a re-analysis of the deposited data

How the results depend on the processing

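For p-UPF1 IP over input, the alternatives gave 11 to 15 higher and 26 to 41 lower chaperone genes, apart from 7 higher at a log2 fold change above 1, and leaving out each library gave 12 to 13 higher and 36 to 38 lower. The median over the chaperone genes was −0.71 by RLE factors, −0.32 by library totals and −0.72 at a mean count of at least 20. By library totals, which raise all values, 4 of the genes named by rule for this comparison changed sign: Hspa5 (0.016), Hsp90aa1 (0.23), Hsp90ab1 (0.30) and Hsp90b1 (0.0025), and the HSP90 median was 0.23. For p-UPF1 IP over rIgG IP, higher genes numbered 5 by RLE factors and by filterByExpr, 3 by DESeq2 and 6 with all 9 libraries, lower genes numbered 12 by RLE factors and 11 by library totals, DESeq2 and filterByExpr, and leaving out each library gave 6 to 10 higher and 2 to 9 lower. Dnajc8 did not pass by DESeq2 (adjusted p = 0.0653) or without rIgG IP replicate 1 (0.117) or 2 (0.0520, edgeR), nor did Cct8 without rIgG IP replicate 1 (0.0596). For rIgG IP over input, lower genes numbered 0 by RLE factors and library totals, 2 by filterByExpr and with all 9 libraries, 4 with no filter, and 0 to 2 on leaving out each library. For transcripts, leaving out each library gave 22 to 26 higher and 38 to 71 lower (38 without Input replicate 1 and 42 without Input replicate 3), and library totals gave 35 higher and 53 lower. The causes were not tested.

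The replicate numbers did not pair the libraries: same-numbered libraries' deviations correlated at −0.006 to 0.047 (p-UPF1 IP over input, 10613 genes), −0.031 to −0.014 and −0.017 to −0.007, and 2 of 9 matched best with their own number. The block on the replicate number left p-UPF1 IP over input at 13 higher and 38 lower, and gave 4 higher and 4 lower over the rIgG IP, 0 lower for rIgG IP over input, and 9 higher and 21 lower transcripts.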
